A study of Mus musculus with 34 samples.

Results

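Immediate early genes are transcribed within minutes of a stimulus from factors that the cell already holds, with no new protein needed. The 10 genes described here are Fos, Fosb, Jun, Junb, Egr1, Egr2, Egr3, Ier2, Ier3 and Dusp1. They were taken by symbol through the Entrez Gene IDs of a mouse RNA-seq count table, and all 10 had a row among its 24475 genes. The table covered 34 libraries in 9 groups. All samples came from C57/Bl6 mice, and the tumors were of MC38, a mouse colon carcinoma line, or LLC, a Lewis lung carcinoma line. Cells were isolated by fluorescence-activated sorting. Macrophages came from MC38 tumors and from LLC tumors, with 4 libraries each. Tumor monocytes were sorted as Ly6C+ CD88+ Sca1+ cells from MC38 tumors, called TuMon1, and as Ly6C+ CD88+ Sca1- cells from LLC tumors, called TuMon2, with 4 libraries each. Ly6C+ spleen monocytes of MC38 and of LLC tumor-bearing mice gave a further 4 libraries each. Bone marrow monocytes were cultured with supernatant of MC38 cells (3 libraries, labelled Sca1+) or of LLC cells (3 libraries, labelled Sca1-), or left as untreated Ly6C+ control cultures (4 libraries). In the tumors the Sca1 gate and the tumor line coincided, so that they cannot be told apart. The same holds in culture for the Sca1 label and the line that gave the supernatant. The labels did not say whether the libraries of a group came from separate mice or cultures, and the p-values then measure only the spread between these libraries, which may be technical.

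Fos and Fosb encode Fos proteins and Jun and Junb encode Jun proteins, which pair through leucine zippers into AP-1, a transcription factor that binds the TGACTCA class of sites. Egr1, Egr2 and Egr3 encode zinc finger factors that bind GC-rich sites and induce their own corepressors, Nab1 and Nab2. Dusp1 encodes a phosphatase that removes the activating phosphates from p38 and JNK kinases, Ier2 a small nuclear protein, and Ier3 a stress-responsive protein linked to survival and NF-kappaB signaling. In monocytes and macrophages these genes respond to adhesion, growth factors, microbial products and the handling of cells, and Egr1 and Egr2 have been tied to macrophage differentiation and activation.

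Promoter sequences of 7 of the 10 genes were taken from RefSeq (GRCm38.p6), as windows from 250 bases before to 50 bases after the transcription start. Egr1 was not included in this search, and no window was held for Egr3 and Ier2. Among these 7 genes, sequences are shown for those that differed most between tumor, spleen and culture, 5′ to 3′ on the strand of the gene. Capitals mark a match, on either strand, to the CArG box bound by serum response factor, to the cyclic AMP response element TGACGTCA, to the Egr site GCGGGGGCG or GCGTGGGCG, or to TATAAA.
Fos (chr12:85473640-85473939, plus strand): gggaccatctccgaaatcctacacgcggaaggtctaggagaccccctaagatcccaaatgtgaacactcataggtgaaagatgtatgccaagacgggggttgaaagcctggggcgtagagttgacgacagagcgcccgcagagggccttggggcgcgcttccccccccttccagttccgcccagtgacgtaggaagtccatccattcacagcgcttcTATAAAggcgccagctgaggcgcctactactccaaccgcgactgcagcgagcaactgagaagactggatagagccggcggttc
Fosb (chr7:19309996-19310295, minus strand): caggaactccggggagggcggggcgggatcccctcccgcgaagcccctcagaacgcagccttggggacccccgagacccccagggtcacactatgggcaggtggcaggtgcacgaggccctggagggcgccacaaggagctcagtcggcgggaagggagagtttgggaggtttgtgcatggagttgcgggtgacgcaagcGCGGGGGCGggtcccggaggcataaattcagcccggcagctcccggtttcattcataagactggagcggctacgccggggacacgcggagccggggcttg
Egr2 (chr10:67537619-67537918, plus strand): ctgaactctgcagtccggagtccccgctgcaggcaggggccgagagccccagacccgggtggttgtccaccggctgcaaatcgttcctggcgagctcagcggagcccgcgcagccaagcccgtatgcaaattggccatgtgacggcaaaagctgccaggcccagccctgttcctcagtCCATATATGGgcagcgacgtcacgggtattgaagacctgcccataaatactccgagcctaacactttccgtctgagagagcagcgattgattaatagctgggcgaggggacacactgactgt
Dusp1 (chr17:26508423-26508722, minus strand): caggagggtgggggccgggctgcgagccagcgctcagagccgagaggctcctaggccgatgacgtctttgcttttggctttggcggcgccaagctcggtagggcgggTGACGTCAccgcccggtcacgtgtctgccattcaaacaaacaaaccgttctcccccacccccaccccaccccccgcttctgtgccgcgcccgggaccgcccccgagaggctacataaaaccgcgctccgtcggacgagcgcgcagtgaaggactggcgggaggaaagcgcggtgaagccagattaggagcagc
Ier3 (chr17:35821463-35821762, plus strand): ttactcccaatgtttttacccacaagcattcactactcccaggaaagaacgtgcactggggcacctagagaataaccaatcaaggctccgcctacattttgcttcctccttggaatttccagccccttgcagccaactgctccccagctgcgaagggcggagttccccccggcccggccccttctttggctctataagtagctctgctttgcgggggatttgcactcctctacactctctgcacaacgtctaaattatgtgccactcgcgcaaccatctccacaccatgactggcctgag
The Egr2 window shown held a CArG box at -72 to -63 from the start, a motif present in 1.63% of 32851 promoter windows of this length. Egr2 had several windows at differing starts, and that share applies to a single window. The Egr2 window from 67535249 matched none of these motifs, and the window from 67537316 held another CArG box. Dusp1 held TGACGTCA at -143 to -136 (1.79% of windows) and Fosb held the Egr site at -50 to -42 (3.47%). The Fos window held TATAAA at -33 to -28 (13.6%). No letters of these motifs, nor the AP-1 sites TGACTCA and TGAGTCA (5.2% of windows), were matched in the Ier3 window. A match here is a run of letters and not evidence of binding. Of the genes not shown, Jun lies at chr4:95049036-95052222, Junb at chr8:84976909-84978748, Ier2 at chr8:84661331-84662852 and Egr3 at chr14:70077317-70082613 (GENCODE M21, GRCm38).

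The libraries held 13047772 to 26966644 estimated counts each. No pair of replicates was as close as sampling noise alone would make it. The monocyte and macrophage markers Csf1r (733 to 2920.1 CPM, counts scaled to library size) and Adgre1, the F4/80 antigen (142 to 996 CPM), were present in every library, and C1qa averaged 3043 CPM in MC38 macrophages and 1656 CPM in LLC macrophages, against 1334 CPM for TuMon1 and 192 CPM for TuMon2. The cells given LLC supernatant, sorted per the labels as Ly6C+, had 11.4 to 13.9 CPM of Ly6c2, against 1393 to 1783 CPM in control cultures. Transcripts of other cells stood out in 5 libraries. Replicates 1, 2 and 3 of the MC38 spleen monocytes held 6360, 5972 and 10511 CPM of 6 fat cell markers together, against 21.6 CPM in replicate 4. Replicate 3 of the MC38-supernatant cultures held 2628 CPM of 8 fibroblast and endothelial markers, against 155 and 161 CPM in its fellows, and replicate 2 of the control cultures held 81.0 CPM of 6 epithelial markers, against at most 0.693 CPM in the others. Results that change without these 5 libraries are given both ways.

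On a scale that allows genes to be compared, the CPM per kilobase of transcript (RPKM), Fos had the highest level of the 10 genes in both kinds of tumor monocyte. Its level was 1858 ± 31.1 RPKM in TuMon1 and 2057 ± 48.8 RPKM in TuMon2 (mean ± SD, n = 4 each). In TuMon1 it was followed by Junb at 1307 ± 62.5 RPKM, Dusp1 at 1038 ± 49.6 RPKM and Ier3 at 763 ± 26.7 RPKM. In TuMon2 Ier3 came second, at 1421 ± 54.2 RPKM. The Egr genes lay far lower, with Egr1 at 59.5 ± 6.16 RPKM and Egr2 at 47.9 ± 3.87 RPKM in TuMon1, and Egr3 at no more than 0.587 ± 0.0901 RPKM, in MC38 macrophages. In spleen monocytes of MC38 mice Junb came first, at 172 ± 41.4 RPKM, with Fos at 111 ± 45.6 RPKM and Ier2 at 104 ± 19.6 RPKM. In those of LLC mice Fos still came first, at 265 ± 85.3 RPKM, with Junb at 208 ± 92.6 RPKM and Ier2 at 129 ± 33.2 RPKM. Ier3 stood sixth in both, at 6.91 ± 8.71 RPKM in MC38 and 14.5 ± 14.2 RPKM in LLC spleens.

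**Figure D1:**
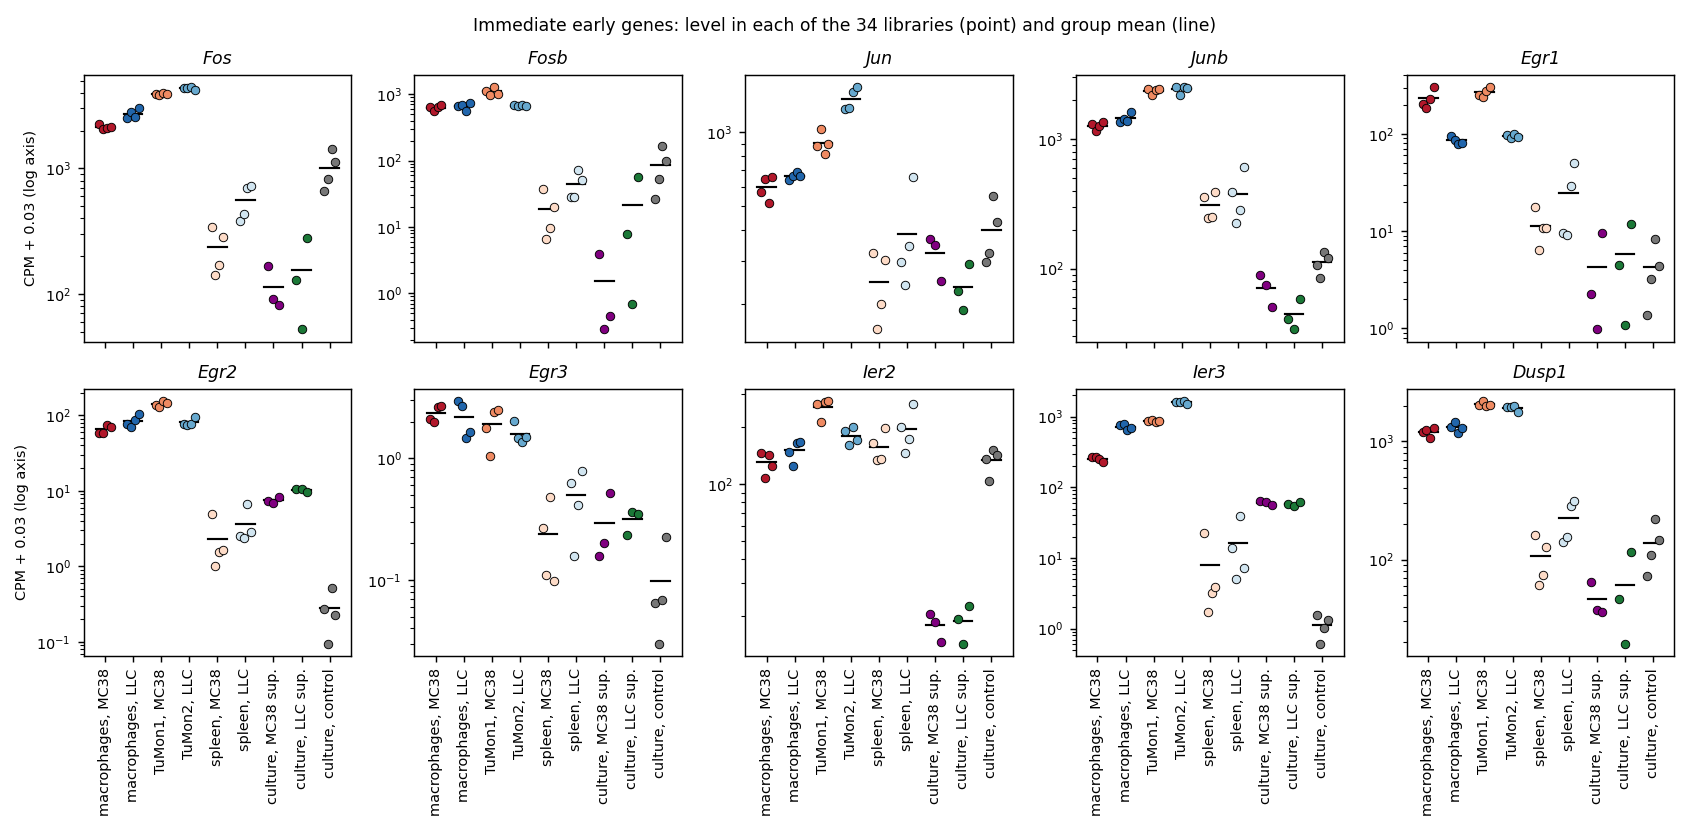
CPM of the 10 genes on log axes (0.03 CPM added so that a level of 0 can be drawn) in the 34 libraries, by group. Points are libraries and lines are group means. All tumor monocyte libraries lie above all spleen libraries for every gene but Ier2, and Egr2 and Ier3 alone of the tested genes lie above the control cultures in all 6 supernatant libraries.

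Monocytes taken from tumors were compared with monocytes from the spleens of the same kind of tumor-bearing mice. The AP-1, Egr and Dusp1 transcripts were many times more abundant in the tumor. Tumor and spleen cells came from different tissues, so that site and any difference in tissue preparation cannot be told apart. In the MC38 comparison 10 of 10 genes rose, where 33.5% of 13200 genes tested rose and 36.6% fell (70.1% changed in either direction). In the LLC comparison 9 of 10 rose, where 28.6% of all genes did (62.6% in either direction), and Ier2 did not pass the test. The median log2 difference of the 10 genes was 4.15 for MC38 and 2.82 for LLC, beside medians over all genes of -0.04 and -0.05. All tests are edgeR quasi-likelihood tests with p-values adjusted by Benjamini-Hochberg over all genes, and differences are log2 ± SE.

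Among the AP-1 genes, the fitted differences of Fos and Fosb were larger than those of Jun and Junb, though for LLC Fos lay close to Junb. Genes were not tested against each other. Fos had 3931, 3826, 3983 and 3925 CPM in TuMon1, against 344, 141, 169 and 285 CPM in spleen monocytes of MC38 mice. It had 4336, 4329, 4467 and 4215 CPM in TuMon2, against 380.2, 429, 698 and 729 CPM in spleen monocytes of LLC mice. No tumor library came near any spleen library, and the difference was 4.04 ± 0.24 for MC38 (adjusted p = 5.29e-12) and 2.96 ± 0.23 for LLC (adjusted p = 5.33e-10). Fosb had 1118, 967, 1293 and 1011 CPM in TuMon1, against 36.9, 6.46, 9.68 and 20.2 CPM in the MC38 spleen libraries. In TuMon2 it had 694, 656, 688 and 652 CPM, against 28, 27.8, 72.7 and 51.1 CPM in the LLC spleen libraries. These are a 59.7-fold rise for MC38 (5.90 ± 0.45, adjusted p = 6.83e-10) and a 15-fold rise for LLC (3.90 ± 0.41, adjusted p = 8.87e-08). In bulk RNA, more cells that express a gene and more RNA per cell cannot be told apart.

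Jun and Junb rose by smaller factors. Jun had 879.8, 1028, 816 and 895 CPM in TuMon1, against 323, 157, 200.1 and 302 CPM in spleen monocytes of MC38 mice, a difference of 1.86 ± 0.25 (adjusted p = 1.19e-06). In TuMon2 it had 1246, 1255, 1454 and 1535 CPM, against 296, 239, 344 and 657 CPM in spleen monocytes of LLC mice (1.84 ± 0.25, adjusted p = 1.66e-06). The spleens thus already held Jun in quantity, and a single LLC spleen library reached 657 CPM without meeting the tumor range. Junb had 2428, 2202, 2379.5 and 2451 CPM in TuMon1, against 356, 246, 249 and 393 CPM in the MC38 spleen libraries (2.91 ± 0.22, adjusted p = 1.82e-10). It had 2512, 2189.8, 2535 and 2462 CPM in TuMon2, against 391, 224, 283 and 604 CPM in the LLC spleen libraries (2.69 ± 0.22, adjusted p = 7.5e-10).

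Among the Egr genes, Egr2 showed the widest gap. It had 136, 129.9, 156 and 147 CPM in TuMon1, against 4.89, 0.99, 1.52 and 1.63 CPM in spleen monocytes of MC38 mice, 65.3-fold apart (6.03 ± 0.36, adjusted p = 8.06e-12). In TuMon2 it had 76.6, 73.9, 76.1 and 94.9 CPM, against 2.52, 2.33, 6.75 and 2.82 CPM in spleen monocytes of LLC mice, 21.7-fold apart (4.44 ± 0.33, adjusted p = 3.98e-10). Every spleen library held Egr2, with 24 to 158 counts, and lay below every tumor library. Egr1 had 252, 238, 276 and 301 CPM in TuMon1, against 17.7, 6.34, 10.6 and 10.6 CPM in the MC38 spleen libraries (4.55 ± 0.44, adjusted p = 2.16e-08). In TuMon2 it had 97.6, 90.8, 99.9 and 92.7 CPM, against 9.49, 9.11, 29.1 and 50 CPM in the LLC spleen libraries (1.97 ± 0.40, adjusted p = 0.000235). No LLC spleen library reached the lowest TuMon2 library, at 90.8 CPM. Egr3 was scarce throughout, at 1.02 to 2.44 CPM in TuMon1 against 0.0681 to 0.455 CPM in MC38 spleens, and at 1.33 to 2 CPM in TuMon2 against 0.127 to 0.757 CPM in LLC spleens. Its difference passed the test for MC38 (3.03 ± 0.49, adjusted p = 6.13e-06) and for LLC (1.79 ± 0.46, adjusted p = 0.00166).

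Ier3 and Ier2 lay at the ends of the set. Ier3 had 855, 905, 834 and 857 CPM in TuMon1, against 22.5, 1.66, 3.19 and 3.88 CPM in spleen monocytes of MC38 mice. It had 1625, 1605, 1672 and 1525 CPM in TuMon2, against 13.7, 4.96, 39.7 and 7.09 CPM in spleen monocytes of LLC mice. The 111-fold rise for MC38 (6.80 ± 0.74, adjusted p = 1.31e-07) and the 97.5-fold rise for LLC (6.61 ± 0.73, adjusted p = 1.83e-07) had the widest error of the 10 genes, and the MC38 spleen libraries differed up to 13.5-fold among themselves. Ier2 had 266, 214, 270.4 and 276 CPM in TuMon1, against 165, 134, 135 and 197 CPM in the MC38 spleen libraries, a difference of 0.68 ± 0.15 (adjusted p = 0.000428). Without the 5 libraries with transcripts of other cells, which leaves a single MC38 spleen library assumed to vary like the other groups, it was 0.37, adjusted p = 0.202. In TuMon2 Ier2 had 189.7, 161, 200.4 and 171 CPM, within the 147 to 264 CPM of the LLC spleen libraries (-0.12 ± 0.15, adjusted p = 0.523). Dusp1 had 2033, 2210.2, 1987 and 2033 CPM in TuMon1, against 162, 61, 74.5 and 128 CPM in the MC38 spleen libraries (4.26 ± 0.29, adjusted p = 4.63e-11). In TuMon2 it had 1973, 1960.0, 1978 and 1772 CPM, against 140.1, 157, 284 and 316 CPM in the LLC spleen libraries (3.10 ± 0.27, adjusted p = 3.86e-09).

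**Figure D2:**
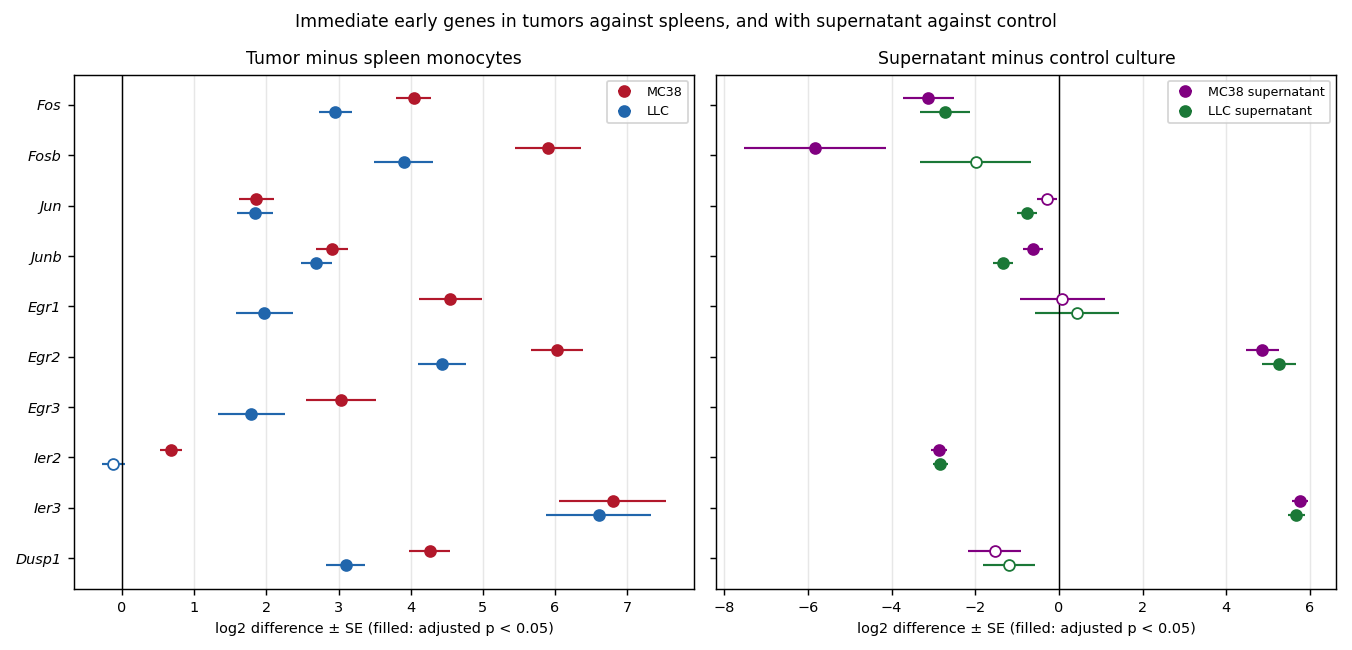
Log2 differences of the 10 genes (points, bars ± SE, filled where the adjusted p is under 0.05). Left, tumor minus spleen monocytes for MC38 and LLC; right, supernatant minus control cultures, where Egr3 was not tested. In the tumors all genes but Ier2 in LLC lie right of 0, whereas with supernatant Egr2 and Ier3 lie near 5 to 6 and Fos and Ier2 near -3.

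Most genes of the other early response lists rose as well. Of 15 other AP-1 family genes, 13 rose and 2 fell in TuMon1 against MC38 spleens, and 12 rose and 3 fell in TuMon2 against LLC spleens (median log2 differences 2.58 and 1.45). Fosl2, a Fos family protein that pairs with Jun proteins, averaged 1049 CPM in TuMon1 against 151 CPM in MC38 spleens (2.77 ± 0.12, adjusted p = 2.48e-16). Atf3, a stress-induced partner of Jun proteins, averaged 1808 CPM in TuMon2 against 137 CPM in LLC spleens (3.72 ± 0.20, adjusted p = 6.19e-13). Of 24 other immediate early genes, 20 rose and 2 fell for MC38, and 22 rose and 2 fell for LLC, among them the clock gene Per1 (3.52 and 2.79) and the pseudokinase gene Trib1 (3.40 and 2.80). Of 9 MAP kinase phosphatases besides Dusp1, 7 rose and 1 fell for MC38 and 8 rose and 1 fell for LLC, with Dusp5, which acts on ERK, at 3.75 and 3.34. Both Egr corepressors rose in both tumors, Nab2 by 2.20 for MC38 and 3.34 for LLC. Among 17 early NF-kappaB genes, 15 rose and 1 fell for MC38 and 12 rose and 2 fell for LLC. The 16 MAP kinase and ternary complex factor genes were divided, with 6 higher and 7 lower for MC38 and 9 higher and 4 lower for LLC. Of 12 heat shock genes, 3 rose and 4 fell for MC38 and 3 rose and 1 fell for LLC.

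Markers of other cells differed beside these comparisons. The summed level of 10 neutrophil markers, all of them detected in each group, was 311 to 335 CPM for TuMon1 and 249 to 324 CPM for TuMon2, against 1095 to 3963 CPM in MC38 spleens and 3454 to 5421 CPM in LLC spleens. The fat cell transcripts of the MC38 spleen libraries are given above. The 8 dendritic cell markers summed to 28.1 to 37.8 CPM for TuMon1 and 7.17 to 9.09 CPM for TuMon2, where Siglech was not detected. In spleens they summed to 49.9 to 69.3 CPM for MC38 and 82.3 to 87 CPM for LLC. The median sums of T and NK, B and red cell markers were also lower in both tumors. For LLC the fibroblast and endothelial and the epithelial sums were higher in the tumor. The part of all these transcripts in the tumor-spleen differences was not tested. Without the 5 libraries with transcripts of other cells, the calls of the genes other than Ier2 in both tumor comparisons stayed.

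The change from spleen to tumor was tested for a difference between MC38 and LLC. It was larger for MC38 in 6 genes, and in none was it smaller, where 23.8% of all genes had a higher and 19.1% a lower value (42.9% in either direction). Egr1 led, with a difference between the log2 changes of 2.58 ± 0.56 (adjusted p = 0.00107), followed by Fosb at 2.0 ± 0.53 (adjusted p = 0.00522) and Egr2 at 1.59 ± 0.47 (adjusted p = 0.0108). Dusp1 differed by 1.16 ± 0.36 (adjusted p = 0.0127), Fos by 1.08 ± 0.31 (adjusted p = 0.00732) and Ier2 by 0.80 ± 0.22 (adjusted p = 0.00495). Jun, Junb, Egr3 and Ier3 did not pass, with 0.02 ± 0.34, 0.22 ± 0.29, 1.24 ± 0.68 and 0.19 ± 0.84. Fos was lower in every TuMon1 library than in any TuMon2 library, and it was also lower in every MC38 spleen library than in any LLC spleen library. Without the 5 libraries Ier2 (0.49, adjusted p = 0.218) and Dusp1 (0.90, adjusted p = 0.0856) did not pass, and Egr2 did not without LLC spleen replicate 3 (1.05, adjusted p = 0.0592). In a fit of these 4 groups alone Dusp1 did not pass either (1.06, adjusted p = 0.0583). Egr3 passed without MC38 spleen replicate 3 (2.03, adjusted p = 0.0258).

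The spleen monocytes of MC38 and LLC mice were compared directly. Fos fell in MC38 spleens (344, 141, 169 and 285 CPM) against LLC spleens (380.2, 429, 698 and 729 CPM), a difference of -1.23 ± 0.22 (adjusted p = 0.000251), and it alone did not overlap. Fosb (-1.29 ± 0.38, adjusted p = 0.0162) and Dusp1 (-1.06 ± 0.25, adjusted p = 0.00366) fell as well although their ranges overlapped. That makes 3 of 10 lower and 0 higher, where 14% of all genes were lower (28.4% in either direction). These calls depend on the libraries. Without the 5 libraries, Fos stood at -0.96, adjusted p = 0.138, Fosb at -1.14, adjusted p = 0.377 and Dusp1 at -0.80, adjusted p = 0.463. In a fit of the spleen groups alone the adjusted p was 0.0958 for Fos, 0.282 for Fosb and 0.197 for Dusp1. Without MC38 spleen replicate 1, the library highest for 7 of the 10 genes in its group, 7 genes fell, with Ier3 at -2.55, adjusted p = 0.00172. Fosb did not pass without LLC spleen replicate 3 (-0.96, adjusted p = 0.0684) or MC38 spleen replicate 3 (-1.07, adjusted p = 0.0712). Other single libraries added calls: Jun passed without LLC spleen replicate 1 or 2 or MC38 spleen replicate 4 (adjusted p from 0.012 to 0.0315), Egr1 without LLC spleen replicate 1 or 2 (0.0106 and 0.0086), Ier2 without LLC spleen replicate 2 or MC38 spleen replicate 4 (0.0411 and 0.0335) and Egr3 without MC38 spleen replicate 3 (0.0436).

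The 2 kinds of tumor monocyte were then set against each other. In TuMon1 Egr1, Egr2 and Ier2 were higher and Jun was lower than in TuMon2, which makes 3 of 10 higher where 26.8% of all genes were, and 1 lower where 22.1% were (48.9% in either direction). Egr1 had 252, 238, 276 and 301 CPM in TuMon1, against 97.6, 90.8, 99.9 and 92.7 CPM in TuMon2, 2.8-fold apart (1.49 ± 0.38, adjusted p = 0.00322). The Egr2 values listed above differed by 0.82 ± 0.26 (adjusted p = 0.0149), and every TuMon1 library exceeded every TuMon2 library. Ier2 was 1.42-fold higher (0.51 ± 0.15, adjusted p = 0.00877). Jun averaged 905 ± 89.4 CPM in TuMon1, against 1373 ± 145 CPM in TuMon2 (SD, n = 4 each), a difference of -0.60 ± 0.24 (adjusted p = 0.0431).

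Ier3, Fosb, Fos and Dusp1 also separated the 2 groups without overlap but did not pass this test, whose estimate of the spread was shared with the variable spleen libraries. The share of all genes without overlap was not counted, in this or any other comparison. Ier3 averaged 863 ± 30.2 CPM in TuMon1, against 1607 ± 61.3 CPM in TuMon2 (-0.90 ± 0.57, adjusted p = 0.204). In a fit of TuMon1 and TuMon2 alone it gave -0.93, adjusted p = 2.51e-10. Fosb averaged 1097 ± 145 CPM in TuMon1, against 672 ± 21.2 CPM in TuMon2, and its value moved to 0.68, adjusted p = 9.57e-07 in that fit, against an adjusted p of 0.12 in the shared one. Fos averaged 3916 ± 65.6 CPM and 4337 ± 103 CPM in the same order, at -0.18, adjusted p = 0.0095, against 0.6. Dusp1, at 1987 to 2210.2 CPM in TuMon1, against 1772 to 1978 CPM in TuMon2, passed in neither fit (0.10 ± 0.25, adjusted p = 0.757, in the shared one), and nor did Junb and Egr3, whose ranges overlapped. Jun lost its call in 6 of the 8 cases of a single library left out: each TuMon1 library and TuMon2 replicates 3 and 4 (adjusted p from 0.0531 to 0.107). It also lost it under upper quartile scaling (0.0586) and with no filter (0.0553). Egr2 did so without TuMon2 replicate 1, 2 or 3 (0.0563, 0.0611 and 0.0583) and Ier2 without TuMon2 replicate 2 (0.058). Without the 5 libraries with transcripts of other cells Fosb passed (0.71, adjusted p = 0.0164).

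Among related genes, both Egr corepressors fell in TuMon1, the opposite of Egr1 and Egr2: Nab2 averaged 64.6 CPM in TuMon1, against 134 CPM in TuMon2 (-1.06 ± 0.07, adjusted p = 2.15e-11). Of 15 other AP-1 family genes 4 rose and 6 fell. Batf2, an AP-1 factor induced by interferon, averaged 61.9 CPM in TuMon1, against 14 CPM in TuMon2 (2.15 ± 0.16, adjusted p = 1.67e-10), while Fosl2 fell (-0.67 ± 0.11, adjusted p = 1.86e-05). Of 24 other immediate early genes 7 rose and 5 fell, with the antiproliferative gene Btg2 at 1963 CPM in TuMon1, against 1159.9 CPM in TuMon2. Of 17 early NF-kappaB genes 10 rose and 2 fell, and Tnfaip3, an inhibitor of NF-kappaB signaling, averaged 842 CPM in TuMon1, against 428 CPM in TuMon2. Of 12 heat shock genes 1 rose and 5 fell. The inducible chaperone gene Hspa1a averaged 499 CPM in TuMon1, against 1746 CPM in TuMon2 (-1.81 ± 0.38, adjusted p = 0.000622); reads of Hspa1a and its near-identical copy Hspa1b may have been divided between them. Of 16 MAP kinase and ternary complex factor genes 2 rose and 10 fell, and of 9 MAP kinase phosphatases 3 rose and 2 fell. The 8 fibroblast and endothelial markers summed to 239 to 321 CPM in TuMon1, against 51.6 to 78.2 CPM in TuMon2, and 6 epithelial markers to 5.82 to 8.10 CPM in TuMon1, against 42.5 to 67.6 CPM in TuMon2, where Krt19 and Cldn4 were at 0. Their part in these differences was not tested.

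Macrophages were compared with the monocytes of the same tumor. Fos, Jun and Junb fell in macrophages of both tumors. For MC38, 7 of 10 genes fell and 0 rose, where 27.9% of all genes fell and 24.8% rose (52.7% in either direction). For LLC, 3 of 10 fell and 0 rose, where 26.3% fell (55.5% in either direction). Fos had 2267, 2042, 2080.5 and 2131 CPM in MC38 macrophages, against 3826 to 3983 CPM in TuMon1 (-0.88 ± 0.22, adjusted p = 0.00185). It had 2506, 2788, 2549 and 3033 CPM in LLC macrophages, against 4215 to 4467 CPM in TuMon2 (-0.68 ± 0.22, adjusted p = 0.0115). Macrophages of both tumors thus lay well below every monocyte library and still far above the spleen.

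Junb had 1299, 1164, 1272 and 1352 CPM in MC38 macrophages (-0.90 ± 0.21 against TuMon1, adjusted p = 0.001). In LLC macrophages it had 1349, 1429.9, 1368 and 1628 CPM (-0.75 ± 0.21 against TuMon2, adjusted p = 0.00395). Jun had 639, 661, 690.2 and 666 CPM in LLC macrophages (-1.05 ± 0.24 against TuMon2, adjusted p = 0.000948). Its 569, 648, 517 and 659.9 CPM in MC38 macrophages gave a smaller difference from TuMon1 (-0.60 ± 0.24, adjusted p = 0.0415). That last call was lost on leaving out any single library of the 8 but TuMon1 replicate 3 (adjusted p from 0.0535 to 0.108), under upper quartile scaling (0.0986), with the stricter filter (0.0502) and with no filter (0.0514). Dusp1 fell in MC38 macrophages, at 1201, 1248, 1065 and 1296 CPM (-0.78 ± 0.25, adjusted p = 0.0129). In LLC macrophages it had 1332, 1467, 1178 and 1297 CPM and missed the threshold (-0.55 ± 0.25, adjusted p = 0.0711), but passed without the 5 libraries with transcripts of other cells (0.0204).

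Egr2, Ier2 and Ier3 were lower in MC38 macrophages than in TuMon1. Egr2 had 58.9, 59, 73.9 and 69.1 CPM in MC38 macrophages, 2.18-fold less than TuMon1 (-1.13 ± 0.26, adjusted p = 0.00136). In LLC macrophages its 76.8, 71, 86.9 and 104 CPM overlapped TuMon2 (0.07 ± 0.26, adjusted p = 0.841). Ier2 had 147, 108, 142 and 125 CPM in MC38 macrophages (-0.98 ± 0.15, adjusted p = 1.29e-05) and 147, 125, 164 and 166 CPM in LLC macrophages (-0.27 ± 0.15, adjusted p = 0.15). For these genes the change itself differed between the tumors, by -1.20 ± 0.37 for Egr2 (adjusted p = 0.0369) and -0.72 ± 0.22 for Ier2 (adjusted p = 0.0287), which are 2 of 10 genes lower where 8.27% of all genes were lower and 6.25% higher (14.5% in either direction). Both calls were fragile. Egr2 was lost on leaving out any of the 16 libraries but LLC macrophage replicate 2 (adjusted p from 0.0533 to 0.0972). Ier2 was lost in 11 of the 16 cases: LLC macrophage replicates 3 and 4, MC38 macrophage replicates 2 and 4, TuMon1 replicates 1, 3 and 4, and each TuMon2 library (0.0503 to 0.0958). In a fit of these 4 groups alone 5 genes passed. Egr2 and Ier2 kept their calls, and Fosb (-0.78, adjusted p = 0.000148) and Ier3 (-0.61, adjusted p = 0.000109) were lower as well. Jun went the other way (0.46, adjusted p = 0.0101). The share of all genes called in that fit was not counted. Fosb had 639, 551, 639 and 676 CPM in MC38 macrophages, below every TuMon1 library (-0.81 ± 0.37, adjusted p = 0.071, and 0.00645 without the 5 libraries), and 668, 687, 554 and 744 CPM in LLC macrophages, which overlapped TuMon2 (-0.02 ± 0.36, adjusted p = 0.964).

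Ier3 had 268, 270.3, 249 and 224 CPM in MC38 macrophages, 3.42-fold less than TuMon1 (-1.77 ± 0.58, adjusted p = 0.0154). In LLC macrophages it had 762, 777, 649 and 699.7 CPM, below every TuMon2 library, at -1.16 ± 0.57 (adjusted p = 0.0942, and 0.0217 without the 5 libraries). Egr1 passed in neither tumor. It had 204, 186, 229.6 and 306 CPM in MC38 macrophages, which overlapped TuMon1 (-0.21 ± 0.37, adjusted p = 0.678). In LLC macrophages it had 94.5, 87.5, 79.5 and 81.5 CPM, which overlapped TuMon2 (-0.15 ± 0.38, adjusted p = 0.752). Egr3 averaged 2.31 ± 0.355 CPM in MC38 macrophages and 1.89 ± 0.664 CPM in TuMon1, and 2.16 ± 0.751 CPM in LLC macrophages and 1.56 ± 0.3 CPM in TuMon2 (SD, n = 4 each), and neither difference passed.

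Between the macrophages of the 2 tumors, Egr1 and Ier3 differed, in the same directions as between TuMon1 and TuMon2. Egr1 was 2.7-fold higher in MC38 macrophages than in LLC macrophages (1.43 ± 0.38, adjusted p = 0.00426), with no overlap between 186 to 306 CPM in MC38 and 79.5 to 94.5 CPM in LLC. Ier3 was 2.85-fold lower (-1.51 ± 0.58, adjusted p = 0.0395), a call that each of the 8 left-out libraries ended (adjusted p from 0.0565 to 0.0862) while a fit of the macrophages alone gave -1.51, adjusted p = 9.97e-09. That makes 2 of 10 genes called where 45.3% of all genes were. Fos did not overlap either, at 2042 to 2267 CPM in MC38 and 2506 to 3033 CPM in LLC macrophages, but did not pass. In the fit of the macrophages alone Fos passed (-0.35, adjusted p = 0.00198). Egr2 passed there too (-0.38, adjusted p = 0.0185), in the direction opposite to that between TuMon1 and TuMon2. Beside this, 8 fibroblast and endothelial markers summed to 174 to 211 CPM in MC38 macrophages, against 32.5 to 54.3 CPM in LLC macrophages. The 6 epithelial markers summed to 5.68 to 8.37 CPM in MC38 macrophages, against 94.7 to 148 CPM in LLC macrophages, where Epcam, Krt19 and Cldn4 were at 0. The 5 B cell markers summed to 29.7 to 32.8 CPM in MC38 macrophages, against 2.66 to 5.14 CPM in LLC macrophages, with Pax5 at 0 in both. The part of these transcripts was not tested. The order of Egr1 over the tumor groups thus followed the tumor, with TuMon1 and MC38 macrophages overlapping each other and TuMon2 and LLC macrophages overlapping each other.

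**Figure D3:**
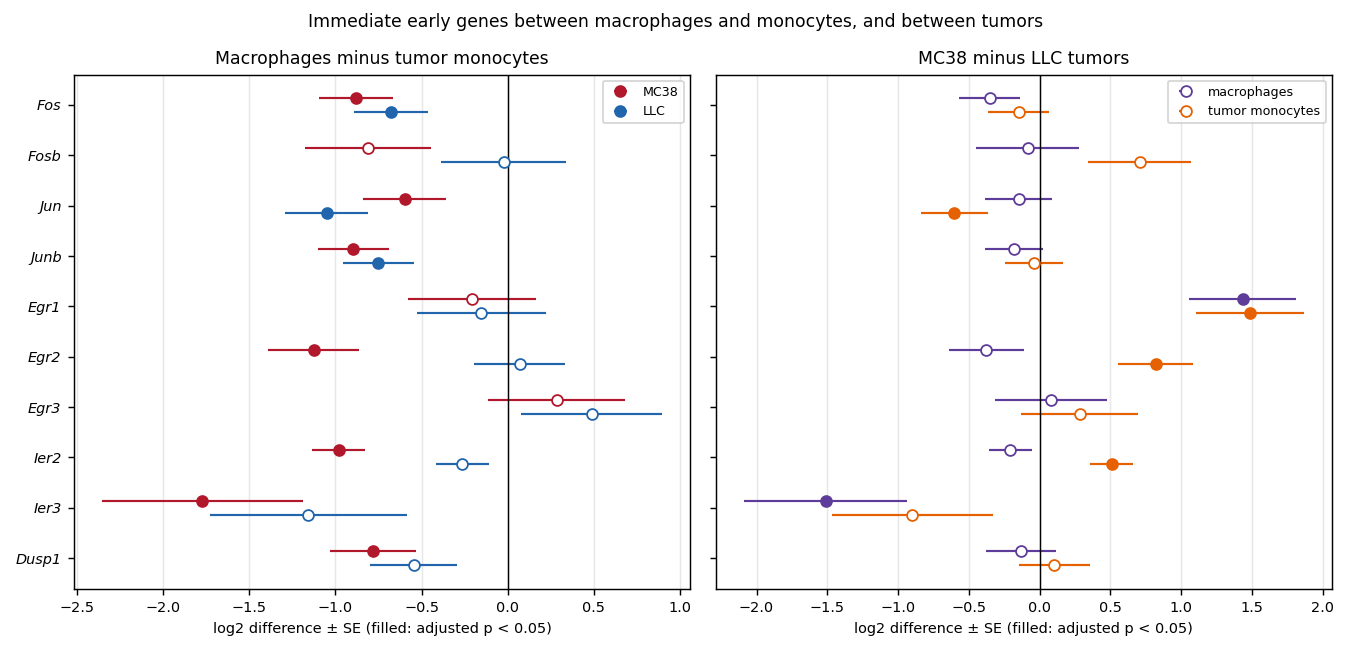
Log2 differences of the 10 genes (points, bars ± SE, filled where the adjusted p is under 0.05) between tumor groups. Left, macrophages minus monocytes within MC38 and within LLC tumors; right, MC38 minus LLC for macrophages and for monocytes. Fos, Jun and Junb lie left of 0 in both tumors, and Egr1 lies near 1.5 in both comparisons of MC38 with LLC.

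In macrophages more genes of the AP-1 and other immediate early lists fell than rose, whereas heat shock genes rose or did not pass. Of 24 other immediate early genes 0 rose and 18 fell for MC38, and 3 rose and 14 fell for LLC. Nr4a1, an orphan nuclear receptor, averaged 420.2 CPM in MC38 macrophages and 1207 CPM in TuMon1 (-1.52 ± 0.11, adjusted p = 5.68e-11), whereas Klf2 rose in LLC macrophages to 377 CPM, against 137 CPM in TuMon2 (1.46 ± 0.17, adjusted p = 1.82e-07). Of 15 AP-1 family genes 1 rose and 10 fell for MC38 and 0 rose and 8 fell for LLC. Fosl2 fell in both, to 361 CPM in MC38 macrophages against 1049 CPM in TuMon1, and to 723 CPM in LLC macrophages against 1668 CPM in TuMon2. The mitochondrial chaperone gene Hspd1 rose in macrophages of both tumors (0.97 for MC38 and 0.87 for LLC), among 5 higher and 0 lower of 12 heat shock genes for MC38 and 4 higher and 0 lower for LLC. Both Egr corepressors fell in both tumors. The 10 neutrophil markers summed to 141 to 181 CPM in MC38 macrophages and 311 to 335 CPM in TuMon1, and to 66.1 to 87.2 CPM in LLC macrophages and 249 to 324 CPM in TuMon2, and their part was not tested.

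In culture, supernatant of either tumor line divided the set. Egr2 and Ier3, at no more than 1.52 CPM in controls, rose, while Fos, Junb and Ier2 fell with both supernatants. Of the 9 genes tested, 2 rose and 4 fell with MC38 supernatant, where 35.4% of 12603 genes rose and 32.5% fell (67.9% in either direction). With LLC supernatant 2 rose and 4 fell, where 32.3% rose and 36.1% fell (68.4%). The share called, 66.7% of the 9 genes with each supernatant, was close to that of all genes. Both supernatant comparisons share the 4 control libraries.

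Ier3 had 62.8, 61 and 55.5 CPM with MC38 supernatant and 58.5, 54.2 and 61.5 CPM with LLC supernatant, against 1.52, 0.583, 0.984 and 1.28 CPM in control cultures. The supernatant libraries agreed closely, and the rise was 54.4-fold with MC38 (5.77 ± 0.20, adjusted p = 2.29e-09) and 51.3-fold with LLC (5.68 ± 0.19, adjusted p = 2.64e-09). Egr2 had 7.22, 6.89 and 8.33 CPM with MC38 supernatant and 10.5, 10.6 and 9.61 CPM with LLC supernatant, against 0.242, 0.0648, 0.492 and 0.197 CPM in controls, which are 7, 1, 13 and 4 counts. The rise was 29-fold with MC38 (4.86 ± 0.39, adjusted p = 1.4e-06) and 38.4-fold with LLC (5.26 ± 0.40, adjusted p = 8.28e-07). Both genes passed under every alternative tried. Egr1 passed with neither supernatant. It had 2.2, 0.941 and 9.46 CPM with MC38 supernatant and 4.46, 1.04 and 11.9 CPM with LLC supernatant, against 1.35, 3.17, 8.21 and 4.38 CPM in controls, with differences of 0.08 ± 1.02 and 0.43 ± 1.01. Egr3 was too scarce to be tested, with 3, 4 and 14 counts with MC38 supernatant and 5, 9 and 8 with LLC supernatant, against 1, 0, 1 and 4 in controls.

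Fos had 167, 91.8 and 82.1 CPM with MC38 supernatant and 130.1, 52.2 and 279.8 CPM with LLC supernatant, against 664, 830.1, 1428 and 1118 CPM in controls. Every supernatant library lay below every control library, and Fos fell by 8.69-fold with MC38 (-3.12 ± 0.61, adjusted p = 0.00209) and 6.57-fold with LLC (-2.72 ± 0.60, adjusted p = 0.00392). Ier2 was more even, at 20.5, 18.5 and 14.5 CPM with MC38 supernatant and 19.4, 14.3 and 22.5 CPM with LLC supernatant, against 135, 103, 152 and 142 CPM in controls. It fell by 7.29-fold with MC38 (-2.87 ± 0.18, adjusted p = 3.48e-07) and 7.13-fold with LLC (-2.83 ± 0.18, adjusted p = 3.83e-07). Fos and Ier2 kept these calls under every alternative tried.

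Junb, Jun, Fosb and Dusp1 gave weaker or less even results. Junb had 88.8, 74.2 and 50.2 CPM with MC38 supernatant and 40.9, 34 and 58.8 CPM with LLC supernatant, against 107, 84.6, 136 and 119.9 CPM in controls. It fell with LLC supernatant (-1.33 ± 0.24, adjusted p = 0.000864). With MC38 supernatant its fall (-0.62 ± 0.23, adjusted p = 0.0392) was lost without MC38-supernatant replicate 2 or 3, without control replicate 1, 3 or 4 (adjusted p from 0.0671 to 0.139) and without the 5 libraries (0.108). Jun had 368, 348 and 248 CPM with MC38 supernatant and 226, 189 and 289.7 CPM with LLC supernatant, against 295, 321, 549 and 431 CPM in controls. It fell with LLC (-0.77 ± 0.24, adjusted p = 0.0172), a call lost without LLC-supernatant replicate 1 or 2 (0.0645 and 0.0791) and in a fit of these groups alone (-0.63, adjusted p = 0.0606), and did not pass with MC38 (-0.28 ± 0.23, adjusted p = 0.314).

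Fosb had 3.84, 0.257 and 0.422 CPM with MC38 supernatant and 7.87, 0.667 and 56.3 CPM with LLC supernatant, against 26.1, 53.4, 164 and 99.6 CPM in controls. With MC38 it fell (-5.82 ± 1.70, adjusted p = 0.0162), which was lost without MC38-supernatant replicate 2 or 3 (0.0511 and 0.0581) and without the 5 libraries (0.0653). With LLC it did not pass (-1.99 ± 1.33, adjusted p = 0.217), but replicate 3 alone held 56.3 CPM, 84.4 times the lowest replicate, and without it the value was -4.33, adjusted p = 0.0403. Dusp1 had 65, 37.6 and 36 CPM with MC38 supernatant and 46.7, 19.4 and 115 CPM with LLC supernatant, against 72.8, 108, 219.8 and 147 CPM in controls. Its differences did not pass (-1.53 ± 0.63, adjusted p = 0.0614, with MC38, and -1.19 ± 0.62, adjusted p = 0.126, with LLC). Without LLC-supernatant replicate 3 the second was -2.05, adjusted p = 0.0172, and the first passed without control replicate 1 (-1.73, adjusted p = 0.0489), under DESeq2 (0.0175) and in a fit of those groups alone (0.0219).

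Between the supernatants, 1 of 9 genes was called, where 40.1% of all genes were. Junb was higher with MC38 than with LLC supernatant (0.71 ± 0.25, adjusted p = 0.049), with overlapping ranges. That call was lost without MC38-supernatant replicate 1 or 2 or LLC-supernatant replicate 1 or 2 (adjusted p from 0.115 to 0.174) and with RLE or upper quartile scaling (0.0655 and 0.0584). Egr2 was lower in every MC38-supernatant library than in any LLC-supernatant library, at -0.40 ± 0.35 (adjusted p = 0.399), and passed without the 5 libraries (-0.52, adjusted p = 0.00411) and in a fit of these groups alone (-0.39, adjusted p = 0.0443). Ier3 differed by 0.09 ± 0.17 and Ier2 by -0.03 ± 0.18 (adjusted p = 0.724 and 0.912).

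The difference between MC38 and LLC was then compared between tumor monocytes and cultures. Fosb (4.57 ± 1.21, adjusted p = 0.00483) and Egr2 (1.27 ± 0.40, adjusted p = 0.0162) were higher and Jun was lower (-1.05 ± 0.37, adjusted p = 0.0296) in the tumor contrast than in the culture contrast. These are 3 of 10 genes, where 30.8% of all genes were called. Egr2 was higher with MC38 in the tumors, and in culture its values with MC38 supernatant lay below those with LLC supernatant. The Fosb value fell to 2.22, adjusted p = 0.136 without LLC-supernatant replicate 3. Jun was lost without TuMon1 replicate 3, TuMon2 replicate 4, LLC-supernatant replicate 1 or 2 or MC38-supernatant replicate 1 or 2 (0.0503 to 0.0883). Calls were added by other libraries: Egr1 passed without MC38-supernatant replicate 3 (3.36, adjusted p = 0.0116) or LLC-supernatant replicate 2 (2.40, adjusted p = 0.0388), Ier2 without LLC-supernatant replicate 2 (0.74, adjusted p = 0.0307), and Junb without LLC-supernatant replicate 3 (0.042) or MC38-supernatant replicate 3 (0.0475). Egr1 and Junb also passed without the 5 libraries with transcripts of other cells (Egr1 at 3.36, adjusted p = 0.0142, and Junb at -0.90, adjusted p = 0.0398).

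Related genes moved in both directions in culture. Of 15 other AP-1 family genes 7 rose and 2 fell with MC38 supernatant and 6 rose and 3 fell with LLC supernatant. Maf, a large Maf factor of macrophages, averaged 413 CPM with MC38 and 432 CPM with LLC supernatant, against 3.89 CPM in controls (differences 6.76 ± 0.13 and 6.79 ± 0.13, adjusted p = 6.55e-11 and 6.54e-11). Fosl2 fell instead, to 87.5 CPM with MC38 and 70.9 CPM with LLC, against 250.2 CPM in controls. Of 23 other immediate early genes 10 rose and 9 fell with MC38, and 6 rose and 12 fell with LLC. Klf4, a factor of monocyte differentiation, averaged 17.1 CPM with MC38 and 27.7 CPM with LLC, against 329.8 CPM in controls. Nab2 rose with both supernatants, beside Egr2 (2.22 ± 0.32 with MC38 and 2.57 ± 0.32 with LLC). Dusp6, an ERK phosphatase, rose as well (2.20 ± 0.09 with MC38 and 2.53 ± 0.09 with LLC), among 3 and 4 higher and 0 lower of 9 phosphatases. Hspa1b fell to 3.16 CPM with MC38 and 0.72 CPM with LLC, against 68.4 CPM in controls, with the uncertainty named for Hspa1a. Markers of other cells moved in the same comparisons. Of 10 neutrophil markers 2 rose and 6 fell with MC38 supernatant and 1 rose and 8 fell with LLC supernatant, while their sum, at 1360.5 to 1827 CPM with MC38 and 1662 to 1721 CPM with LLC, overlapped the 1318 to 1789 CPM of controls. Of 10 monocyte and macrophage markers 8 rose and 2 fell with each supernatant. The 8 dendritic cell markers summed to 7.48 to 36.8 CPM with MC38 and 0.721 to 0.927 CPM with LLC, where Zbtb46 and Siglech were at 0, against 42.7 to 63.2 CPM in controls. The 6 fat cell markers summed to 19.9 to 28.05 CPM with MC38 and 84.7 to 88.9 CPM with LLC supernatant. In controls they summed to 0.324 to 0.519 CPM. Cfd, Plin1 and Lep were at 0 with both supernatants, and Car3 was at 0 with LLC supernatant. Adipoq had at most 0.0371 CPM with LLC and 0.0352 CPM with MC38 supernatant. The sum with LLC supernatant was thus nearly all Fabp4, the remaining marker of the list. The 8 fibroblast and endothelial markers summed to 155 to 2628 CPM with MC38 and 55.1 to 62.1 CPM with LLC supernatant, against 19.9 to 53.7 CPM in controls, and their part was not tested beyond the fit without the 5 libraries.

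Within a group the genes varied together across libraries outside the tumors. In the tumor groups the highest library exceeded the lowest by at most 1.65-fold for any gene but Egr3. In the spleen and culture groups the gap reached 13.5-fold for Ier3 in MC38 spleens and 84.4-fold for Fosb with LLC supernatant. The same libraries were high for most genes. MC38 spleen replicate 1 lay above its group mean for 10 of 10 genes and replicate 2 for 0. LLC spleen replicate 2 was the lowest of its group for 8 genes, LLC-supernatant replicate 3 the highest for 8 and replicate 2 the lowest for 8, and control replicate 3 the highest for 8. The MC38 spleen replicates 1, 2, 3 and 4 held 6360, 5972, 10511 and 21.6 CPM of the fat cell markers, and the part of these transcripts in the spread was not tested. With supernatant Egr2 and Ier3 varied less, and their libraries differed by no more than 1.21-fold, while Fos differed 5.36-fold with LLC supernatant. In control cultures Egr2 differed 7.60-fold, on few counts, and Ier3 2.61-fold.

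**Figure D4:**
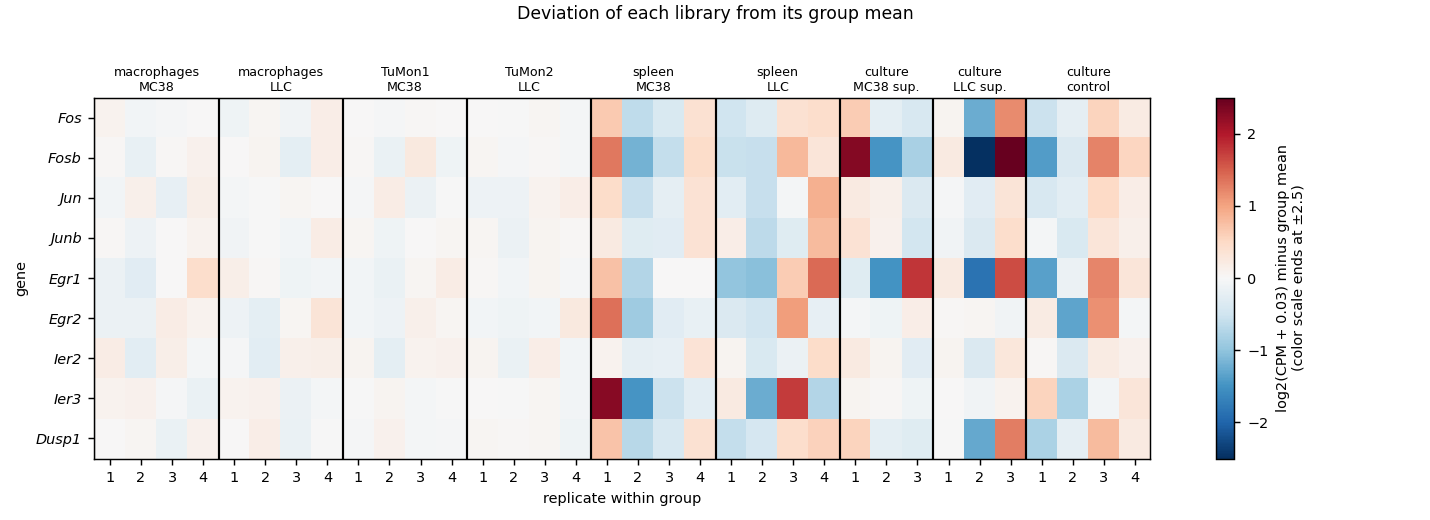
Log2(CPM + 0.03) of 9 genes (rows, Egr3 left out for its low counts) minus the group mean, for each library (columns, by group). Red is above and blue below the group mean, and the color scale ends at ±2.5. Tumor columns are pale, whereas spleen and culture columns are colored alike down most rows, such as LLC-supernatant replicates 2 and 3.

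Over the 24 libraries from mice, Dusp1 and Fos lay nearest the mean pattern of the 10 genes, with root mean square distances of 0.18 and 0.23 on centered log2 CPM, and Ier2 and Ier3 farthest, at 1.59 and 1.74. Among 8238 other genes of at least 10 CPM, the nearest were Ttc39b (0.37), Zfand2a (0.37), Tlr2 (0.39), Atf3 (0.39) and Slc15a3 (0.40). Tlr2, a receptor for bacterial lipoproteins, averaged 864 CPM in TuMon1 cells, 738 CPM in TuMon2 cells, 441 CPM in MC38 macrophages and 555 CPM in LLC macrophages, against 75.3 CPM in MC38 spleens and 114 CPM in LLC spleens. Zfand2a, an arsenite- and heat-inducible gene, averaged 221 CPM in TuMon1 cells and 136 CPM in TuMon2 cells, against 15.8 CPM in MC38 spleens and 17 CPM in LLC spleens. These distances share the libraries and their depth and carry no test.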

How the data were processed

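Polyadenylated RNA of 34 libraries was extracted with TRIzol and prepared with a strand-specific KAPA kit, per the labels' protocols. The authors deposited 1 table of unscaled estimated counts per gene, by Entrez Gene ID, in which 14.6% of values are not whole. The submitters' processing notes name CASAVA 1.8.2 and GRCm38 (mm10), while for the aligner and counter no name is given in the sources used here. Raw counts had been assumed, and the values were rounded for the tests, and library totals moved by at most 0.000368%. Estimated counts can place shared reads on near-identical genes such as Hspa1a and Hspa1b.

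Symbols came from RefSeq tables and matched 24375 of 24475 IDs. Groups came from the titles, because the tumor labels of MC38 samples carry differing numbers. Libraries from mice (24 libraries, 13200 genes after filterByExpr), cultures (10 libraries, 12603 genes) and all libraries (34 libraries, 14582 genes, for the contrast of tumors with cultures) were each fitted in edgeR 4.0.16 (R 4.3.3) with TMM scaling and the robust, 2-sided quasi-likelihood F-test, called at a Benjamini-Hochberg adjusted p under 0.05 over all genes tested. The SE is the size of the log2 difference divided by the root of the F statistic. All 10 genes passed the filter in the libraries from mice and 9 in culture. There were 13 comparisons, of which 3 were differences between differences. Printed CPM used TMM over all 34 libraries, log2 CPM a prior count of 2, and RPKM the longest coding transcript of GENCODE M21. Fold changes are the antilog of the fitted log2 difference.

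Results were recomputed with DESeq2 1.42.0, with RLE or upper quartile scaling, without a filter or keeping genes of at least 5 CPM in 3 libraries, with the replicate number as a block, on the compared groups alone, leaving out 5 libraries with transcripts of other cells, and each library left out in turn. The fits were also run on simulated counts, whose outcome is not given here. Each simulated gene had the same spread in every group, which does not cover the unequal spread of the real groups. Figures used matplotlib 3.10.9, pandas 2.3.3 and Python 3.11.15. The members, lists and tests were chosen with earlier results of these data known. Named genes were the 10 members and, from each list, up to 4 genes with the smallest adjusted p in a comparison, of which the text names some, chosen after their values were seen, with the 5 genes of most similar pattern.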

Additional observations from a re-analysis of the deposited data

Results flagged for a closer look

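In 6 of the 70 sets of 4 libraries examined, a gene and a group each, the highest or lowest library stood apart from the other 3 by Dixon's ratio, where chance gives about 1 in 20. Egr2 stood apart 3 times. It had 94.9 CPM in TuMon2 replicate 4, against at most 76.6 CPM in its fellows. In the spleens it had 4.89 CPM in MC38 replicate 1 and 6.75 CPM in LLC replicate 3. Ier3 had 22.5 CPM in MC38 spleen replicate 1. Ier2 was low in TuMon1 replicate 2, at 214 CPM, and Dusp1 was low in TuMon2 replicate 4, at 1772 CPM. MC38 spleen replicate 1 also held fat cell transcripts, as did replicates 2 and 3, whose Ier3 levels were 1.66 and 3.19 CPM, and the part of these transcripts was not tested.

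The change from spleen to tumor differed between MC38 and LLC for Egr1 (2.58 on the log2 scale), Fosb (2.0), Egr2 (1.59), Dusp1 (1.16), Fos (1.08) and Ier2 (0.80), by edgeR's test of the difference. In each of these genes the change was larger for MC38. The change from monocyte to macrophage differed for Egr2 (-1.20) and Ier2 (-0.72), which fell further in MC38 tumors. The difference of MC38 from LLC was higher in tumors than in cultures for Fosb (4.57) and Egr2 (1.27), and lower for Jun (-1.05). Several of these calls did not hold in every refit, as given above. Leaving out single libraries ended both calls of the macrophage change, those of Fosb and Jun against cultures, and that of Egr2 from spleen to tumor. The calls of Dusp1 and Ier2 from spleen to tumor were lost without the libraries with transcripts of other cells.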

How the results depend on the processing

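No called direction reversed under any alternative. Of 2195 repeat tests of single genes, 2041 stayed on the same side of the threshold, 103 lost and 51 gained a call. Upper quartile scaling moved the median log2 difference of all genes by -0.14 for MC38 tumor monocytes against spleens, and by 0.11 and 0.15 for MC38 and LLC macrophages against monocytes.

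Fits of only the groups compared called 7 genes (main count 4) between TuMon1 and TuMon2, 6 (3) between LLC macrophages and monocytes, 4 (2) between macrophages, 5 (2) for the difference of macrophage changes, 6 (3) for tumors against cultures and 0 (3, with 1 at an unadjusted p under 0.05) between spleens. Without the 5 libraries with transcripts of other cells, 5 genes were called between LLC macrophages and monocytes, 5 for tumors against cultures, 2 between supernatants (main count 1) and 0 between spleens (5 unadjusted). With no filter 1 gene each was called between macrophages and for the difference of macrophage changes. DESeq2 likewise called 1 gene each, of 9 with an adjusted p, since it gave none for Ier3: Egr1 between macrophages, and Ier2 for the difference, where Egr2 lost its call (0.0764). Between supernatants edgeR called 0 genes with RLE scaling, upper quartile scaling (2 unadjusted each) and no filter (1 unadjusted), and DESeq2 called 2. The share of all genes called was counted for the main fits only, not for these or the other refits. The cause was not tested.

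Of single genes not given above, with no filter Ier3 lost its call between macrophages (0.0502), Egr2 for the difference of macrophage changes (0.059), and Junb between supernatants (0.0837) and with MC38 supernatant (0.071). In the fit of only the groups compared Junb lost its call between supernatants (0.0756). DESeq2 added Egr1 between spleens (0.0366), Dusp1 for LLC macrophages against monocytes (0.0372) and Fosb between supernatants (0.0161).

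Leaving out each library in turn gave 10 to 10 genes for MC38 tumor against spleen, 9 to 9 for LLC, 2 to 3 between TuMon1 and TuMon2, 6 to 7 for MC38 and 3 to 3 for LLC macrophages against monocytes, 1 to 1 between macrophages, 2 to 7 between spleens, 5 to 7 for the difference of tumor-spleen changes, 0 to 2 for that of macrophage changes, 4 to 6 and 5 to 8 for MC38 and LLC supernatant against control, 0 to 1 between supernatants, and 2 to 5 for tumors against cultures.

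The deviations of same-numbered libraries correlated between -0.37 and 0.28, and in 0 of 18 pairs of groups did all exceed 0.1. These values were not set against libraries of differing number, and the libraries with transcripts of other cells entered them. They therefore cannot exclude that libraries were paired. With the replicate number as a block, 0 genes were called between supernatants (1 unadjusted), Junb lost its call with MC38 supernatant (0.11) and Jun with LLC supernatant (0.0508), and Ier2 gained one for LLC macrophages against monocytes (0.0353) and for tumors against cultures (0.0293). Depth limits Egr3 and the control values of Egr2, which rest on 1 to 13 counts.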
